A study of Mus musculus with 45 samples.

Results

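The genes described here are 9 effector genes that suppressive myeloid cells are known for: *Arg1*, *Arg2*, *Nos2*, *Ptgs2*, *Ido1*, *Cybb*, *Ncf1*, *Cd84* and *Olr1*. They were taken by name from a table of 55367 gene symbols, and all 9 were found in it. They were chosen with earlier results of these data known, so that their share of calls beside that of all genes is description only. The table holds gene counts from bulk 3' RNA sequencing of 45 libraries from 4 tissues of female Balb/c mice, in 15 groups of 3 libraries. Tumor-bearing mice had received an orthotopic inoculation of 2000000 cells of 1 of 3 lines, and their tissues were taken 14 days later. The lines, 67NR, 4T07 and 4T1, are established lines that derive from a single spontaneous mouse mammary tumor. The 67NR line is regarded as nonmetastatic, 4T07 as micro-metastatic and 4T1 as metastatic. Primary tumors were sequenced for each line. Scaffolds, lungs and spleens were sequenced for each line and for control mice without a tumor, whose tissues were taken at the same time. Scaffolds are porous polycaprolactone disks that were placed under the skin of the back when the mice were 7 to 8 weeks old, 2 weeks before inoculation. All mice with a scaffold, controls included, therefore carried this implant. Each line is a transplanted cell line, so that 1 line stands for 1 metastatic behavior. The labels do not link libraries to single mice, and p-values here measure only the spread between these libraries.

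Myeloid suppressor cells, of neutrophil or monocyte origin, accumulate in tumor-bearing animals and restrain T cells by several routes. Arginase (*Arg1*, *Arg2*) and the inducible nitric oxide synthase (*Nos2*) both consume arginine, *Ido1* consumes tryptophan and *Ptgs2* (cyclooxygenase-2) starts the synthesis of prostaglandins. *Cybb* (the gp91phox subunit) and *Ncf1* (p47phox) belong to the phagocyte NADPH oxidase, which makes superoxide, and *Cd84* (a SLAM family receptor) and *Olr1* (the scavenger receptor LOX-1) are surface markers used to recognize suppressive myeloid cells.

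Promoter sequences from RefSeq (mouse build GRCm38.p6, 250 bases upstream of the annotated start, read in the sense of the gene) were found for 5 of the 9 genes: *Cd84*, *Cybb*, *Ncf1*, *Olr1* and *Ptgs2*. They are shown for the 3 genes whose promoter held a searched motif. *Ptgs2* (chr1:150099781-150100030, plus strand) held 1 match to the C/EBP motif TTGCNNAA, in capitals, and *Ncf1* (chr5:134229626-134229875, minus strand) held 1 match to the interferon-stimulated response element (ISRE, GAAA, any 2 bases and GAAA), in capitals. *Cybb* (chrX:9469325-9469574, minus strand) held 3 matches to the ISRE, in capitals, of which the 2 farther from the start lie on the other strand.
Ptgs2: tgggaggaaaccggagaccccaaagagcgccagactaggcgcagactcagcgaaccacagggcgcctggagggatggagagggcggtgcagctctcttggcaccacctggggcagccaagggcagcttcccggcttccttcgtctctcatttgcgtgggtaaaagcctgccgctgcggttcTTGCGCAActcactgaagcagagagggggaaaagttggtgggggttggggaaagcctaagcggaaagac
Ncf1: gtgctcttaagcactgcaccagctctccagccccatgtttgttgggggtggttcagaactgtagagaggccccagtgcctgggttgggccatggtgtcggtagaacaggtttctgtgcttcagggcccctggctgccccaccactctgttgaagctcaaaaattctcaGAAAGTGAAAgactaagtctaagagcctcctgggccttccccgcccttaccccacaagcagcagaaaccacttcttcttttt
Cybb: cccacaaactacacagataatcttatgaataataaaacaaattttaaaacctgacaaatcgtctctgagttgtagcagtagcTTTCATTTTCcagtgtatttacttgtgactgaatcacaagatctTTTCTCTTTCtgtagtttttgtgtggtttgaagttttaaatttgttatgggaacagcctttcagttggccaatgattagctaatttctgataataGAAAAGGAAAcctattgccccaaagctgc
The ISRE was present in 2.98% of 32851 mouse promoters of this length and the C/EBP motif in 9.56%. Motifs were searched on both strands. No match to the NF-kB motif (GGGA, any 3 bases and TCC, 3.86%), the hypoxia element ACGTG (16.6%) or the STAT6 motif (TTC, any 4 bases and GAA, 5.85%) lay in any of the 5 windows, and those of *Cd84* and *Olr1* held none of the motifs named here. A match is a description of letters and not evidence of binding.

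Total counts per library ranged from 3491888 to 8175380 with a median of 5149589, so that the floor used here, 3 counts in a library, stood for 0.367 to 0.859 counts per 1000000 counts of its total (CPM). Libraries carry the numbers 1 to 45 in the labels and are named by them below. Lung epithelial markers (5 genes) summed to 28467 CPM or more in the control, 67NR and 4T1 lungs and to at most 419 CPM in every other tissue. In the lungs of 4T07 mice this sum was 5693 to 14287 CPM, against 34911 to 37028 CPM in control lungs, while the erythroid sum (7 genes) was 71766 to 92666 CPM against 17748 to 26195 CPM. All 3 libraries shared this pattern, so that no 4T07 lung could be compared without it. Among the 4T07 scaffolds library 22 stood apart, with a neutrophil sum (11 genes) of 9530 CPM against 3245 and 2689 CPM in the other two, and among the 4T07 tumors library 31 did, with 5425 CPM against 1948 and 1129 CPM. Results that rest on these 2 libraries are also given without them. No neutrophil, monocyte or macrophage marker was at 0 in any group, whereas the eosinophil marker *Ear6* was at 0 in control and 67NR scaffolds and *Epx* in 67NR tumors. In bulk tissue, fewer cells of a type and less RNA per cell cannot be told apart. Levels are compared between libraries and not between genes.

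**Figure D1:**
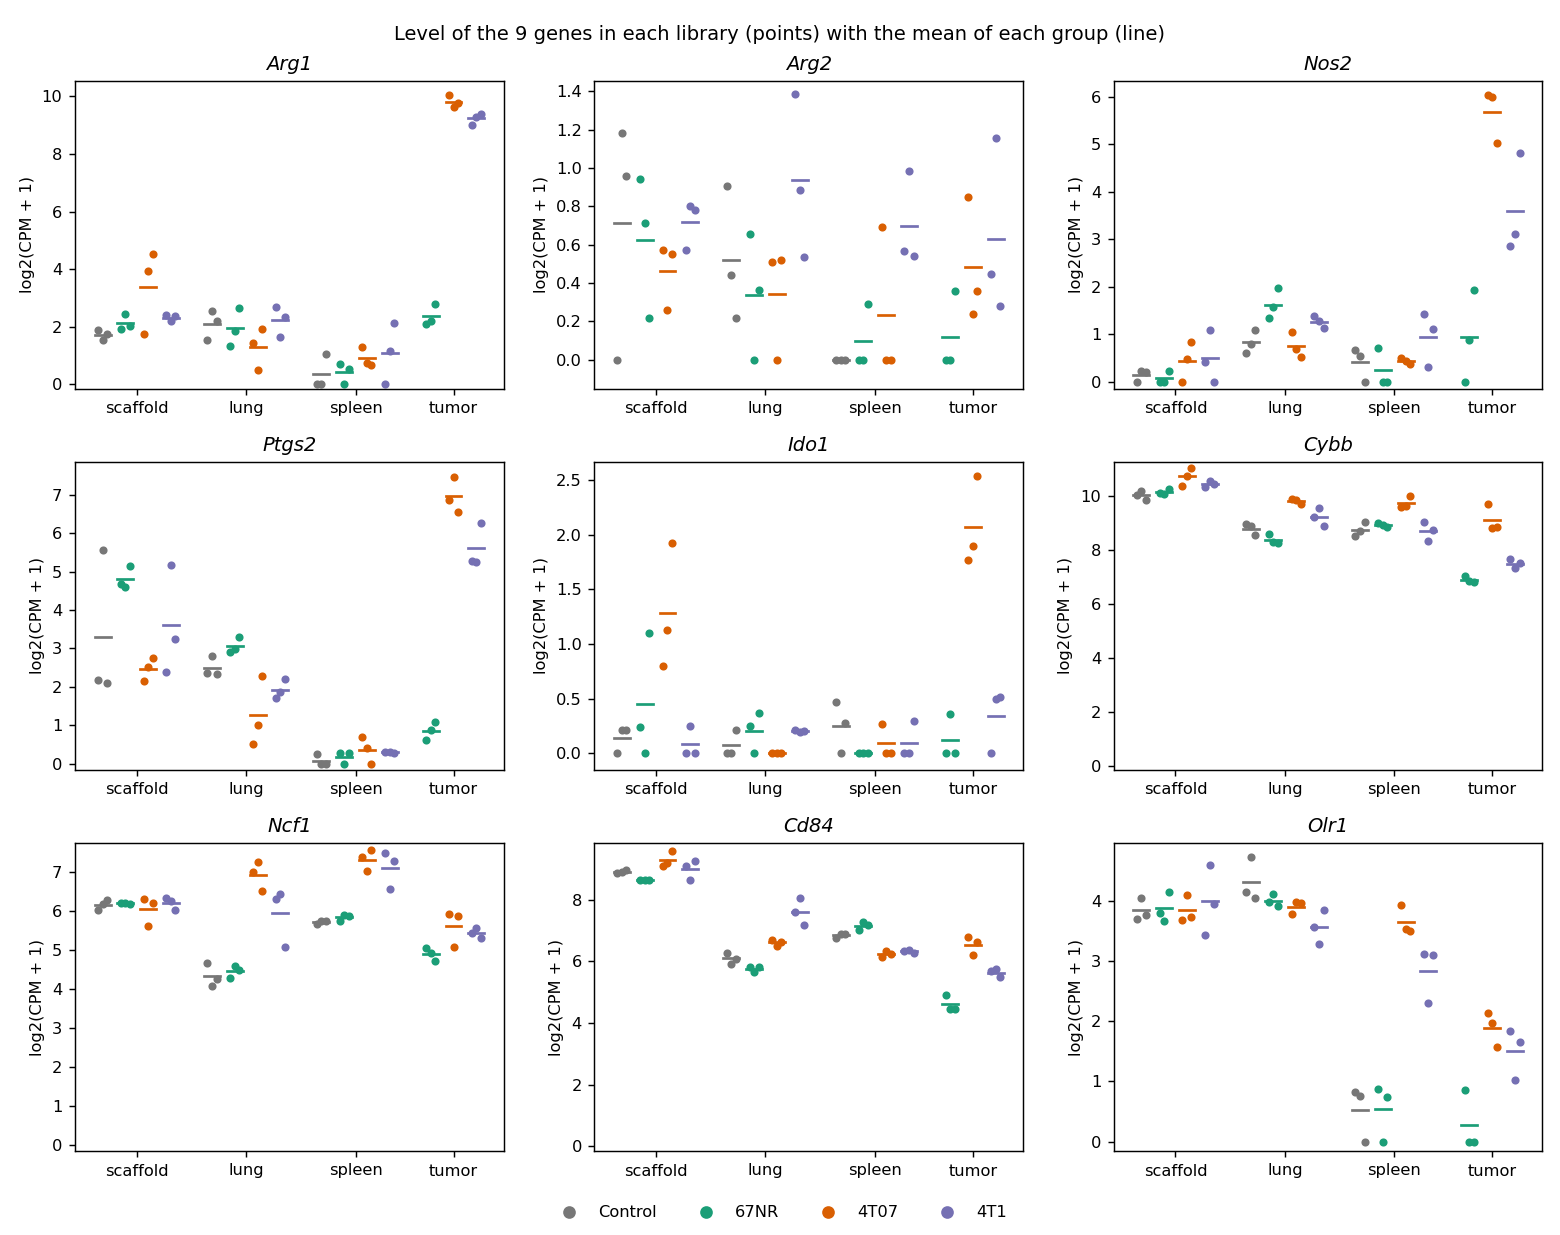
Level of each of the 9 genes as log2(CPM + 1) on the y axis, 1 point per library and a line for the mean of each group of 3, in scaffolds, lungs, spleens and tumors (gray control, green 67NR, orange 4T07, purple 4T1). *Arg1*, *Nos2* and *Ptgs2* are highest in 4T07 and 4T1 tumors, whereas *Ncf1* is highest in spleens of the same mice at 160 and 142 CPM.

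The primary tumors showed the largest differences. The comparison asks how the effector genes differ with the metastatic behavior of the line. Relative to 67NR tumors, 7 of the 9 genes rose in 4T07 tumors and none fell, where 17.1% of the 20508 genes tested rose and 28.9% were called in either direction (adjusted p below 0.05 and a change of more than 2-fold). In 4T1 tumors 4 of the 9 rose and none fell, where 11.6% of all genes rose and 20.7% were called. Relative to 4T07 tumors, 4 of the 9 were lower in 4T1 tumors and none was higher, where 4.79% of all genes were lower and 8.61% were called. The median log2 fold change of the 9 genes was 2.99 in 4T07 and 2.22 in 4T1 tumors, beside 0.16 and 0.09 for all genes tested. With the 3 genes at or under the floor in 67NR tumors set to their bounds, the medians were 1.99 and 0.85.

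*Arg1*, which splits arginine to ornithine and urea, had the largest fitted fold change of the 9 genes relative to 67NR tumors with all libraries and was 3.23, 3.64 and 5.93 CPM in the 67NR tumors. It was 1045, 801 and 870 CPM in the 4T07 tumors, and 515, 627 and 669 CPM in the 4T1 tumors. All values of the 3 lines were separate from each other, with every 4T07 tumor highest. Relative to 67NR, *Arg1* rose 178-fold in 4T07 tumors (log2 fold change 7.48 ± 0.27 SE, adjusted p = 1.3e-10) and 123-fold in 4T1 tumors (6.94 ± 0.26, adjusted p = 3.18e-10). Between 4T1 and 4T07 tumors the difference was -0.53 ± 0.18 and did not pass the test (adjusted p = 0.0649). *Arg2*, the mitochondrial arginase, had between 0 and 6 counts in any tumor and did not pass the test. *Nos2*, which turns arginine into nitric oxide, was 0, 0.839 and 2.82 CPM in 67NR, 64.4, 62.4 and 31.6 CPM in the 4T07 tumors, and 6.22, 7.58 and 27.2 CPM in 4T1 tumors. The lowest 4T07 tumor lay just above the highest 4T1 tumor. *Nos2* rose 36.2-fold in 4T07 (5.18 ± 0.70, adjusted p = 3.3e-05) and 9.66-fold in 4T1 tumors (3.27 ± 0.74, adjusted p = 0.00333). These folds rest on few 67NR counts: without 67NR library 19 or 21 they became 4.56 or 6.63 (log2) in 4T07 and 2.65 or 4.73 in 4T1 tumors, and without 4T1 library 45 the latter was 2.25, all past the test. *Nos2* was lower in 4T1 than in 4T07 tumors (-1.91 ± 0.49, adjusted p = 0.0169). That call was lost without library 31, 32, 43 or 44 (adjusted p from 0.0551 to 0.0881) and with DESeq2 (0.172), and without library 45 the difference was -2.87.

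*Ptgs2*, the inducible enzyme of prostaglandin synthesis, was near the limit of counting in 67NR tumors at 0.538, 0.839 and 1.13 CPM. It reached 115, 176 and 93.1 CPM in the 4T07 tumors, and 37.7, 37.3 and 76.2 CPM in 4T1 tumors. It rose 126-fold in 4T07 (6.98 ± 0.45, adjusted p = 4.18e-08) and 51.4-fold in 4T1 tumors (5.68 ± 0.47, adjusted p = 2.73e-07). All 3 groups were again separate, and *Ptgs2* was 2.45-fold lower in 4T1 than in 4T07 tumors (-1.29 ± 0.28, adjusted p = 0.00565). Without 4T07 library 32, its highest value, this difference was -0.98 and under 2-fold. *Ido1*, the interferon-inducible enzyme of tryptophan breakdown, had 12, 15 and 17 counts in 4T07 tumors, 0, 1 and 0 in 67NR tumors and 0, 2 and 2 in 4T1 tumors. Of the tumors, those of 4T07 alone had more than 2 counts. It rose in 4T07 relative to 67NR tumors (adjusted p = 0.00159), with a ratio of 34.0 between the pooled levels and an exact 95% counting interval of 5.79 to 1372. It was lower in 4T1 than in 4T07 tumors (adjusted p = 0.00605), by a ratio of 11.7 (4.27 to 45.0). These intervals cover counting error only.

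The subunits of the phagocyte oxidase differed less. *Cybb*, its membrane-bound catalytic subunit, was 129, 116 and 112 CPM in 67NR, 841, 449 and 466 CPM in the 4T07 tumors, and 202, 159 and 182 CPM in 4T1 tumors. All 4T07 values exceeded all others. *Cybb* rose 4.13-fold in 4T07 tumors (2.05 ± 0.22, adjusted p = 4.31e-06). Its difference in 4T1 tumors was 0.41 and did not pass (adjusted p = 0.165), and it was lower in 4T1 than in 4T07 tumors (-1.64 ± 0.22, adjusted p = 0.000131). Without library 31, the latter was -1.28 and passed. *Ncf1*, the cytosolic organizer of the oxidase, had means of 28.9 ± 3.43 (SD, n = 3), 49.9 ± 15.1 and 42.5 ± 3.74 CPM in 67NR, 4T07 and 4T1 tumors. Its differences from 67NR were 0.53 (adjusted p = 0.0637) and 0.36 (adjusted p = 0.242), so that neither passed.

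Of the surface markers, *Cd84* was called in 4T07 tumors alone and *Olr1* in both lines relative to 67NR. *Cd84* was 28.8, 21.0 and 20.9 CPM in 67NR, 110, 71.8 and 97.4 CPM in the 4T07 tumors, and 49.9, 52.3 and 44.0 CPM in 4T1 tumors. The 3 groups did not overlap. *Cd84* rose 3.33-fold in 4T07 tumors (1.74 ± 0.20, adjusted p = 6.54e-06). In 4T1 tumors its difference from 67NR was 0.85 (adjusted p = 0.0037), and from 4T07 it was -0.88 (adjusted p = 0.00482), both under 2-fold and so not called. *Olr1* had 3, 0 and 0 counts in 67NR tumors, and 3.41, 2.90 and 1.98 CPM in the 4T07 tumors, and 2.56, 1.02 and 2.16 CPM in 4T1 tumors. It rose in both lines, with a pooled ratio of 10.3 (3.28 to 52.0, adjusted p = 0.00828) in 4T07 and 6.99 (2.17 to 35.9, adjusted p = 0.0331) in 4T1 tumors. The 4T1 call was lost without library 20, 21, 43 or 45 (adjusted p from 0.0746 to 0.112) and when only the pair of groups was fitted (0.0528). The difference between 4T1 and 4T07 was -0.48 (adjusted p = 0.616).

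Markers of several cell types moved with these tumor differences, and their part in them was not tested. The neutrophil sum was 42.9 to 406 CPM in 67NR, 1129 to 5425 CPM in the 4T07 tumors, and 670 to 1060 CPM in 4T1 tumors, with 10 of 11 markers called higher in 4T07 and 4 of 11 in 4T1 than in 67NR tumors. The macrophage sum (8 genes) was 2470 to 2847 CPM in 67NR and 2411 to 3153 CPM in 4T07 tumors, which overlapped, and lower than both in 4T1 tumors at 1938 to 2319 CPM. The monocyte sum (5 genes) overlapped between the 3 lines at 603 to 666, 598 to 739 and 569 to 626 CPM. The fibroblast sum (4 genes) was 516 to 643 CPM in 67NR tumors against 2997 to 4097 in 4T07 and 3441 to 4755 CPM in 4T1 tumors, and the eosinophil sum (5 genes) was 1.98 to 4.84, 39.5 to 204 and 9.28 to 15.5 CPM. The epithelial sum (6 genes), which tumor cells can hold, was 18.3 to 30.2, 165 to 226 and 988 to 1102 CPM. Within the 4T07 tumors, library 31 had the highest neutrophil sum and the highest *Arg1*, *Nos2*, *Cybb*, *Ncf1*, *Cd84* and *Olr1*, whereas the highest *Ptgs2* was in library 32. Without library 31, all 7 genes called in 4T07 relative to 67NR tumors were still called, with *Arg1* at 7.31, *Nos2* at 4.97, *Ptgs2* at 7.00, *Cd84* at 1.55 and *Cybb* at 1.65.

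**Figure D2:**
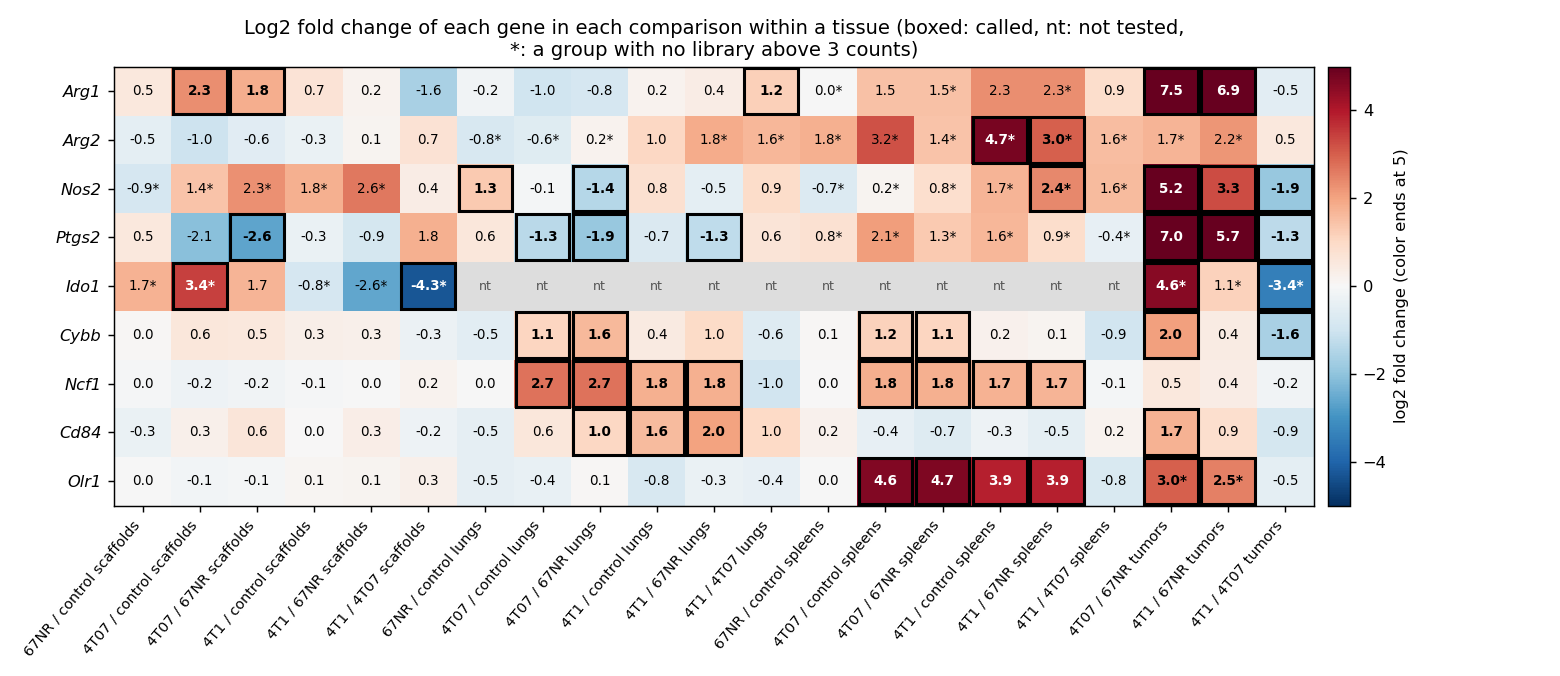
Log2 fold change of each gene (rows) in the 21 comparisons within a tissue (columns), colored from -5 (blue) to 5 (red), with boxed cells where the call passed, nt where a gene was not tested, and an asterisk where a group had no library above 3 counts, whose fitted value is no bound. Boxes gather at *Arg1*, *Nos2* and *Ptgs2* in tumors, at *Ncf1* in lungs and spleens, and at *Olr1* in spleens and tumors.

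In the spleen, where myeloid cells can expand in tumor-bearing mice, *Olr1* and *Ncf1* rose in both 4T07 and 4T1 mice and *Cybb* rose in 4T07 mice. *Ido1* did not pass the count filter in spleens, so that 8 genes were tested. In spleens and the other tissues below a call required an adjusted p below 0.10 and a change of more than 2-fold. Relative to control spleens, 3 of 8 genes rose in 4T07 mice (18.6% of 21128 genes called, 8.26% higher) and 3 of 8 rose in 4T1 mice (19.9% called, 9.84% higher), and none fell. In 67NR spleens none of the 8 was called by edgeR or DESeq2 (2.26% of all genes by edgeR). Between 4T1 and 4T07 spleens none was called by edgeR or DESeq2 (2.33% of all genes by edgeR). At an unadjusted p below 0.05, 3712 and 3485 of the 21128 genes differed in these comparisons.

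*Olr1* had the largest change. It had 4, 3 and 0 counts in control spleens and 4, 0 and 3 counts in 67NR spleens. In 4T07 spleens it was 14.2, 10.5 and 10.3 CPM, and in 4T1 spleens 7.67, 3.92 and 7.54 CPM. Every 4T07 and 4T1 spleen thus lay above every control and 67NR spleen, whose levels were at the limit of counting. *Olr1* rose 25.1-fold in 4T07 (4.65 ± 0.54, adjusted p = 1.48e-05) and 14.6-fold in 4T1 spleens (3.87 ± 0.57, adjusted p = 9.96e-05) relative to control. Without control library 9, which had no count, the 4T1 value was 3.27. The difference between 4T1 and 4T07 was -0.78 and did not pass (adjusted p = 0.323). *Ncf1* was 49.9, 52.4 and 52.6 CPM in control spleens, with 67NR spleens at 52.6, 58.8 and 57.9 CPM. It was 165, 128 and 188 CPM in 4T07 and 178, 92.8 and 155 CPM in 4T1 spleens. *Ncf1* rose 3.49-fold in 4T07 (1.80 ± 0.22, adjusted p = 2.19e-05) and 3.3-fold in 4T1 spleens (1.72 ± 0.22, adjusted p = 2.5e-05). The 4T1 spleen with the lowest *Ncf1* and *Olr1*, library 41, also had the lowest neutrophil sum of its group, at 12727 CPM against 33121 and 30871 CPM, and without it the 4T1 values were 1.97 for *Ncf1* and 4.14 for *Olr1*.

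*Cybb* rose in 4T07 spleens by little more than 2-fold. It was 366, 417 and 530 CPM in control, 774, 792 and 1030 CPM in 4T07 and 522, 321 and 428 CPM in 4T1 spleens. The 4T07 values lay above all control values, whereas those of 4T1 overlapped them. *Cybb* rose 2.23-fold in 4T07 (1.16 ± 0.21, adjusted p = 0.000608), and without library 30 the change was 0.99 and under 2-fold. In 4T1 spleens the fitted difference from control was 0.22 (adjusted p = 0.47), although the mean CPM was slightly lower (424 against 438), since the fit scales libraries by TMM factors and CPM does not, so that no direction is given. The difference from 4T07 was -0.94 (adjusted p = 0.0253), under 2-fold. *Cd84* went the other way without a call, at 113 ± 5.78 CPM in control, 141 ± 13.9 in 67NR, 74.4 ± 5.65 in 4T07 and 78.9 ± 2.86 in 4T1 spleens. Its differences from control were -0.43 (adjusted p = 0.0472) and -0.27 (adjusted p = 0.206). *Arg2* had no count in any control spleen and 2, 4 and 2 counts in 4T1 spleens (adjusted p = 0.0315), and *Arg2* had too few counts to pass the filter in 4 of the 12 fits that left out a library. *Arg1*, *Nos2* and *Ptgs2* stayed below 4 CPM in every spleen.

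Relative to 67NR spleens, 3 of 8 genes rose in 4T07 (14.7% of genes called, 6.5% higher) and 4 of 8 in 4T1 spleens (20.7%, 10.3% higher). *Olr1*, *Ncf1* and *Cybb* rose in 4T07 by 4.65, 1.77 and 1.09, the last becoming 0.95 without library 30. *Olr1* and *Ncf1* rose in 4T1 by 3.87 and 1.69. The other two calls in 4T1 spleens rested on few counts. *Arg2* had 8 counts over the 4T1 spleens and 1 over the 67NR spleens (adjusted p = 0.0887, ratio 8.33 with an interval of 1.12 to 370), and the call was lost without library 16 or 17 (adjusted p of 0.185 and 0.200) and without the count filter (0.117). *Nos2* had 13 counts against 3 (adjusted p = 0.0866, ratio 4.51 with an interval of 1.24 to 24.7), lost without library 8, 17, 18, 29, 40 or 42 (adjusted p from 0.101 to 0.283) and with DESeq2 (0.143). In these spleens all 11 neutrophil markers were called higher in 4T07 and in 4T1 mice than in control. Their sum was 1008 to 1751 CPM in control, 1033 to 1285 in 67NR, 25105 to 30781 in 4T07 and 12727 to 33121 CPM in 4T1 spleens. The monocyte sum was 326 to 423 CPM in control, 657 to 834 in 4T07 and 391 to 635 CPM in 4T1 spleens, with 3 and 4 of 5 markers called higher than in control. The eosinophil sum moved as well, from 141 to 189 CPM in control to 1364 to 1904 in 4T07 and 432 to 1180 CPM in 4T1 spleens. The macrophage sum was 1841 to 2400 CPM in control, 1282 to 1417 in 4T07 and 881 to 1241 CPM in 4T1 spleens. Lymphocyte markers were lower as well. The B cell sum (4 genes) was 641 to 804 CPM in control, 265 to 354 in 4T07 and 146 to 249 CPM in 4T1 spleens. The T cell sum (5 genes) was 158 to 189, 58.1 to 71.0 and 73.3 to 83.0 CPM. The part of these cells in the results was not tested.

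**Figure D3:**
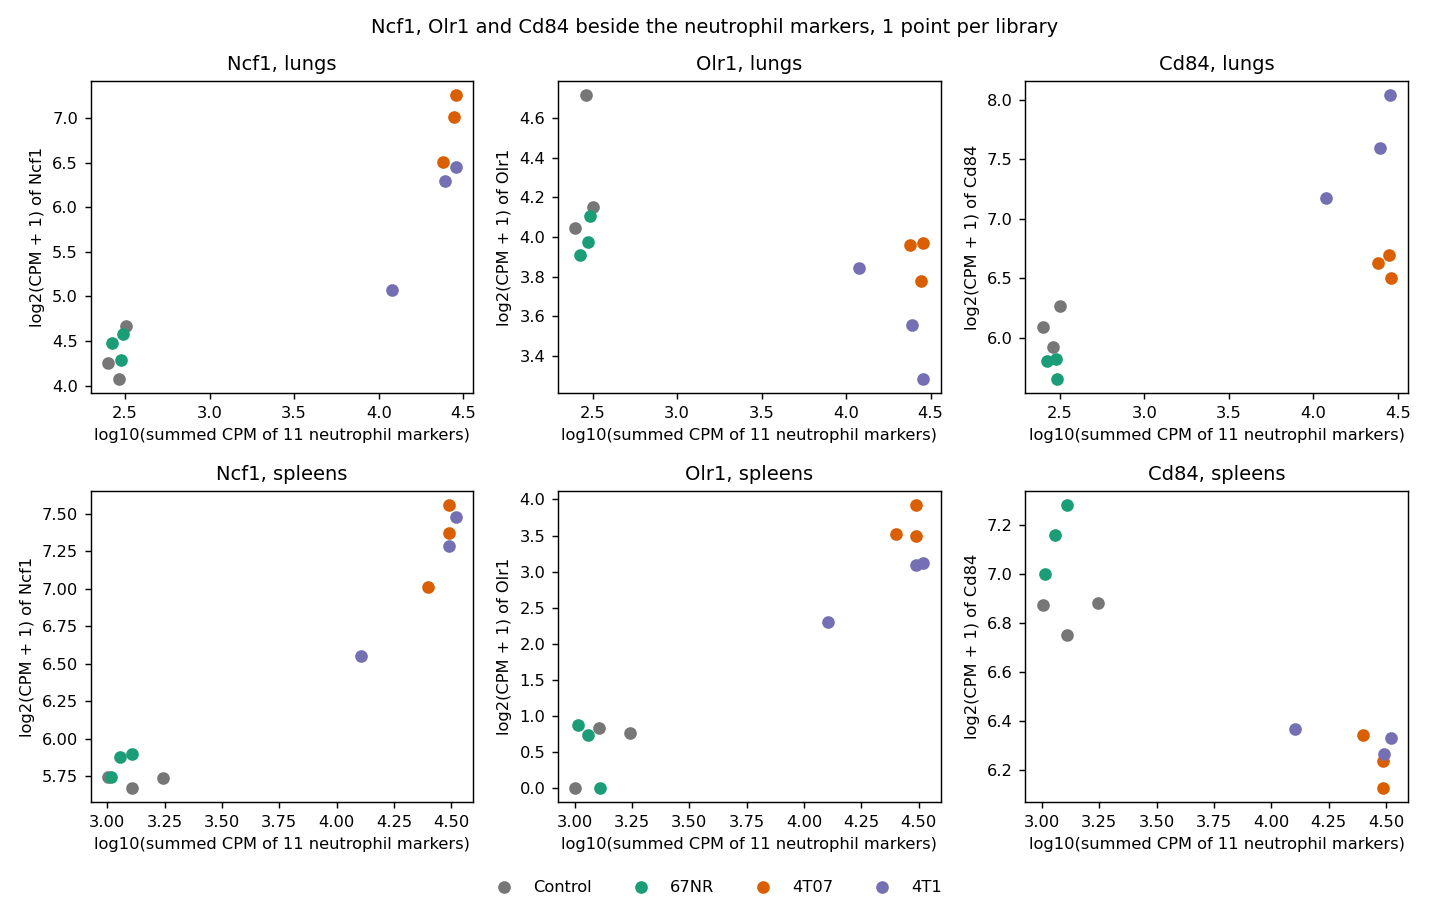
Level of *Ncf1*, *Olr1* and *Cd84* as log2(CPM + 1) on the y axis against log10 of the summed CPM of 11 neutrophil markers on the x axis, 1 point per library, in lungs (top) and spleens (bottom). Control and 67NR libraries sit at sums of 251 to 1751 CPM, and 4T07 and 4T1 libraries at 11925 to 33121 CPM, with *Olr1* higher in spleens and not in lungs of the latter.

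The lung is a main site of spread of 4T1 cells. Relative to control lungs, 2 of the 8 genes tested rose and 1 fell in 4T07 mice (29% of 21937 genes called), and 2 rose and none fell in 4T1 mice (4.61% called, 3.56% higher). In 67NR lungs 1 rose (4.25% called, 2.52% higher). *Ncf1* was 24.4, 15.9 and 18.1 CPM in control lungs. It was 128, 152 and 89.8 CPM in 4T07 and 77.8, 86.3 and 32.7 CPM in 4T1 lungs. Every 4T07 and 4T1 lung exceeded every control. *Ncf1* rose 6.59-fold in 4T07 (2.72 ± 0.28, adjusted p = 1.2e-07) and 3.38-fold in 4T1 lungs (1.76 ± 0.28, adjusted p = 0.000263). The 4T1 lung with the lowest *Ncf1*, library 39, again had the lowest neutrophil sum of its group (11925 CPM against 24623 and 28473 CPM), and without it the 4T1 change was 2.07. The difference of -0.96 between 4T1 and 4T07 (adjusted p = 0.00491) was under 2-fold.

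*Cd84* rose most in 4T1 lungs. It was 75.8, 59.7 and 67.0 CPM in control, 102, 89.6 and 98.1 CPM in 4T07 and 192, 262 and 143 CPM in 4T1 lungs. The 4T1 lungs lay above all 4T07 lungs, and these above all controls. *Cd84* rose 2.97-fold in 4T1 lungs (1.57 ± 0.17, adjusted p = 3.34e-06). In 4T07 lungs its difference was 0.58 (adjusted p = 0.0101), under 2-fold, and 4T1 differed from 4T07 by 0.99 (adjusted p = 9.73e-05), also under 2-fold. *Cybb* was 495, 472 and 378 CPM in control, 957, 920 and 845 CPM in 4T07 and 594, 754 and 473 CPM in 4T1 lungs. The order of the 4T07 and 4T1 lungs was thus the reverse of that of *Cd84*. *Cybb* rose 2.11-fold in 4T07 lungs (1.08 ± 0.17, adjusted p = 2.17e-05), and without library 6 the change was 0.96 and under 2-fold. In 4T1 lungs the difference was 0.45 (adjusted p = 0.111).

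*Ido1* did not pass the count filter in lungs and was not tested there. None of the other inducible enzymes was called higher in 4T07 or 4T1 lungs relative to control. *Ptgs2* was 4.18, 5.95 and 4.05 CPM in control and 0.423, 1.03 and 3.90 CPM in 4T07 lungs, where all values were below the lowest control. It fell 2.53-fold (-1.34 ± 0.45, adjusted p = 0.0206). Without library 25 the difference was -0.85 (adjusted p = 0.123), and without library 27, the highest 4T07 lung, it was -2.58. In 4T1 lungs *Ptgs2* was 2.25, 2.68 and 3.60 CPM, also below every control, without a call. *Arg1* stayed between 0.413 and 5.47 CPM in all lungs. It was called higher in 4T1 than in 4T07 lungs, the only call of 8 between them (1.18 ± 0.54, adjusted p = 0.0916, where 23.5% of genes were called and 11.6% were higher). That call was lost without library 6, 14, 25, 26, 37 or 39 (adjusted p from 0.107 to 0.355), with DESeq2 (0.114) and with its size factors (0.102), and without library 27 the difference was 1.78. *Nos2* was 0.523, 0.721 and 1.13 CPM in control and 1.53, 1.95 and 2.89 CPM in 67NR lungs. In 4T1 lungs it was 1.61, 1.41 and 1.20 CPM, above every control, without a call. The call in 67NR lungs (1.31 ± 0.45, adjusted p = 0.079) was lost without library 4, 5, 14 or 15 (adjusted p from 0.119 to 0.322), with DESeq2 (0.169) and without the count filter (0.108). *Olr1*, in contrast to spleens, was 16.7, 25.2 and 15.5 CPM in control and 10.8, 8.76 and 13.3 CPM in 4T1 lungs, a difference of -0.79 (adjusted p = 0.0237) under 2-fold. *Arg2* reached 10, 6 and 3 counts in 4T1 lungs, its highest group mean in the series at 0.969 ± 0.59 CPM, without a call.

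Relative to 67NR lungs, 3 genes rose and 2 fell in 4T07 lungs (29.7% of genes called). *Ncf1*, *Cybb* and *Cd84* rose by 2.72, 1.60 and 1.03. *Nos2* fell by 1.42 and *Ptgs2* by 1.90 on the log2 scale, the former lost without library 15 (adjusted p = 0.109), the latter becoming -3.14 without library 27. In 4T1 lungs 2 rose and 1 fell (5.03%). *Ncf1* and *Cd84* rose by 1.76 and 2.02, and *Ptgs2* fell by 1.26, a call that was lost without library 15, 37 or 38 (adjusted p from 0.134 to 0.182). *Cybb* differed by 0.97 (adjusted p = 0.000627), under 2-fold. All 11 neutrophil markers were called higher in both 4T07 and 4T1 than in control lungs. Their sum was 251 to 319 CPM in control, 266 to 306 in 67NR, 23945 to 28628 in 4T07 and 11925 to 28473 CPM in 4T1 lungs. The monocyte sum was 258 to 289 CPM in control, 593 to 680 in 4T07 and 400 to 625 CPM in 4T1 lungs, with 2 and 3 of 5 markers called higher. In 4T07 lungs the macrophage sum was 739 to 1020 CPM against 461 to 484 in control, and the eosinophil sum 818 to 1169 against 16.0 to 32.3 CPM, beside the lung epithelial and erythroid sums given above. The 4T1 lungs had a lung epithelial sum of 28467 to 35452 CPM and a macrophage sum of 479 to 531 CPM. The part of these cells in the results was not tested.

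The scaffold served as an implanted site, which held macrophage markers in control mice too (a sum of 3390 to 3624 CPM). Here few of the 9 genes were called. Relative to control scaffolds, 2 rose in 4T07 mice (7.44% of 22156 genes called, 3.85% higher). None was called in 67NR mice, where edgeR called 0% of all genes, with 626 genes at an unadjusted p below 0.05. None was called in 4T1 mice (0.0226%), with 2682 genes at an unadjusted p below 0.05. *Arg1* was 2.73, 1.90 and 2.36 CPM in control, 2.77, 4.49 and 3.11 CPM in 67NR and 4.24, 3.54 and 4.13 CPM in 4T1 scaffolds. In 4T07 scaffolds it was 2.32, 14.2 and 21.9 CPM. Of these 4T07 scaffolds, 2 lay above all other scaffolds and library 22 lay within the controls. *Arg1* rose 4.97-fold (2.31 ± 0.56, adjusted p = 0.0134). Without library 24 the change was 1.65 (adjusted p = 0.0848), and without library 22, which had the highest neutrophil and erythroid sums, it was 2.84 (adjusted p = 0.000418). In 4T1 scaffolds the difference was 0.67 (adjusted p = 0.705). Between 4T1 and 4T07 scaffolds it was -1.64 ± 0.52 and not called (adjusted p = 0.155), whereas without library 22 it was -2.16 and called (adjusted p = 0.00844).

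*Ido1* had 6, 6 and 18 counts in 4T07 scaffolds against 0, 1 and 1 in control, 1, 0 and 7 in 67NR and 0, 1 and 0 in 4T1 scaffolds. It rose relative to control with a pooled ratio of 13.3 (3.37 to 115, adjusted p = 0.0445), a call lost without library 1, 2, 3 or 24 (adjusted p from 0.101 to 0.185). With all libraries it was also the only gene of the 9 called between 4T1 and 4T07 scaffolds (1% of all genes called, 0.366% lower), lower in 4T1 by a ratio of 26.0 (4.32 to 1060, adjusted p = 0.0988). This call was lost without library 2, 3, 10, 23, 24, 34, 35 or 36 (adjusted p from 0.105 to 0.257) and when only the pair of groups was fitted (0.197). Relative to 67NR scaffolds, 1 gene rose and 1 fell in 4T07 scaffolds (5.85% of genes called). *Arg1* rose by 1.80 ± 0.53 (adjusted p = 0.0439), lost without library 10, 12, 23 or 24 (adjusted p from 0.114 to 0.239). *Ptgs2* was 24.8, 23.1 and 34.1 CPM in 67NR and 3.42, 4.72 and 5.75 CPM in 4T07 scaffolds, which did not overlap. It fell by 2.64 ± 0.83 (adjusted p = 0.0564), lost without library 10, 11, 12, 22, 23 or 24 (adjusted p from 0.105 to 0.140). In control scaffolds *Ptgs2* was 3.57, 46.6 and 3.31 CPM and in 4T1 scaffolds 4.24, 34.9 and 8.44 CPM, so that single libraries (2 and 35) carried these means. The 4T07 difference from control was -2.10 (adjusted p = 0.115) and without library 2 it was 0.26. No gene of the 9 was called between 4T1 and 67NR scaffolds (0.0226% of genes), with 2234 genes at an unadjusted p below 0.05.

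The oxidase subunits and surface markers were detected in every scaffold. *Cybb* averaged 1055 ± 124, 1146 ± 73.8, 1734 ± 390 and 1405 ± 113 CPM in control, 67NR, 4T07 and 4T1 scaffolds. Its difference between 4T07 and control was 0.57 (adjusted p = 0.0623), under 2-fold. *Cd84* averaged 477 ± 15.5, 397 ± 1.64, 626 ± 117 and 516 ± 107 CPM and *Ncf1* between 66.3 and 73.0 CPM. *Olr1* averaged 13.4 to 15.8 CPM. The neutrophil sum was 765 to 2405 CPM in control, 1397 to 1679 in 67NR, 2689 to 9530 in 4T07 and 2779 to 3878 CPM in 4T1 scaffolds, with 8 of 11 markers called higher in 4T07 and none in 4T1 scaffolds relative to control. The macrophage sum was 3177 to 4054 CPM over all scaffolds.

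Whether a change differed between tissues was tested itself, over all scaffold, lung and spleen libraries and 26665 genes. More and less compare signed changes here, so that a fall counts as less than a rise. For 4T1 against control, 2, 3 and 2 of the 9 genes differed between spleen and lung, spleen and scaffold, and lung and scaffold, where 16.8%, 15.2% and 1.05% of all genes did. For 4T07 against control, 2, 3 and 2 differed (22%, 16.7% and 20.6% of all genes), and for 4T1 against 4T07, 1, 0 and 4 differed (24.1%, 1.36% and 18.7%). The 0, from edgeR, was also 0 with DESeq2, and 2827 genes had an unadjusted p below 0.05 there. Relative to control, *Olr1* changed more in spleens than in lungs in both 4T07 (5.18 on the log2 scale, adjusted p = 1.5e-08) and 4T1 mice (4.69, adjusted p = 1.95e-06). These values share the few counts of control spleens, and the 4T1 value was 4.11 without library 9. *Cd84* changed less in spleens than in lungs in both (-0.88 and -1.82), with mean CPM below control in spleens and above it in lungs. *Ncf1* changed more in lungs than in scaffolds in both (2.82 and 1.81). *Arg1* changed in the other direction, less in lungs than in scaffolds of 4T07 mice (-3.43, adjusted p = 0.00798). Its mean CPM was below control in these lungs and above it in these scaffolds. The difference was -2.79 without library 24 and -4.07 without library 27. These comparisons share the control libraries and the lungs of 4T07 mice described above.

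**Figure D4:**
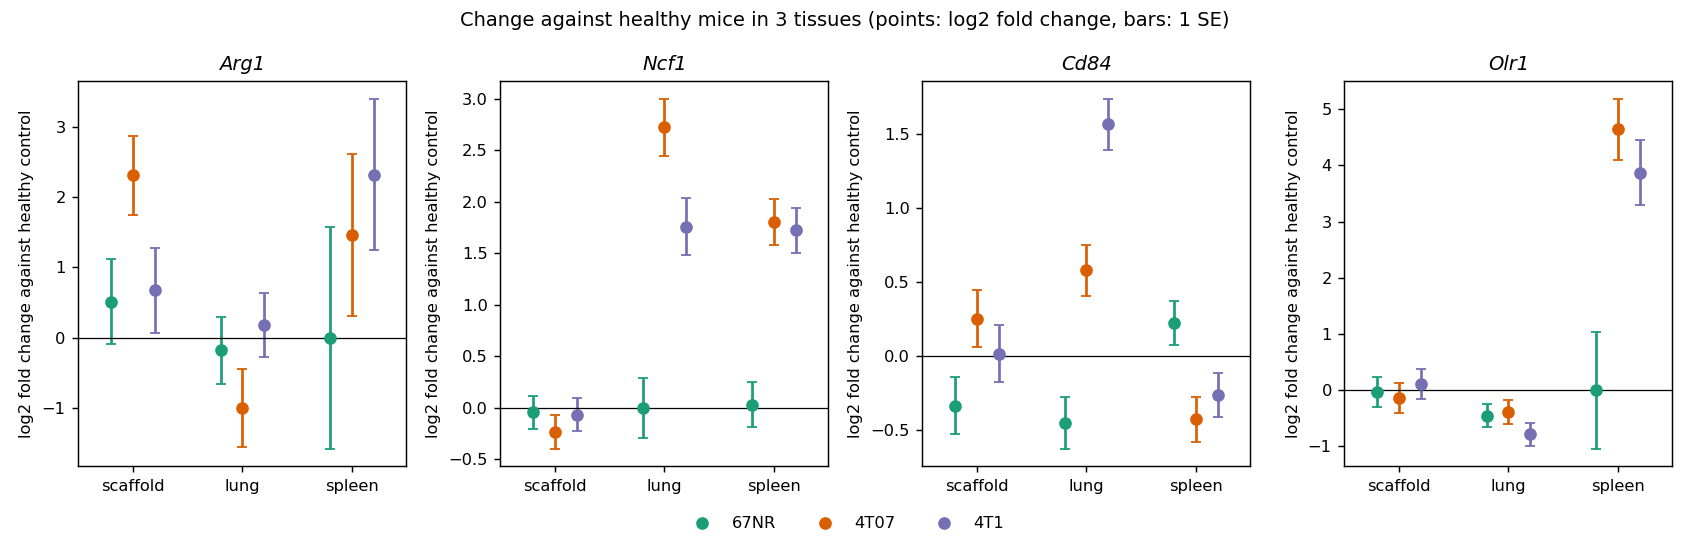
Log2 fold change relative to control (points) with 1 SE (bars) for *Arg1*, *Ncf1*, *Cd84* and *Olr1* in scaffolds, lungs and spleens of 67NR, 4T07 and 4T1 mice. *Ncf1* is higher in lungs and spleens of 4T07 and 4T1 mice, *Olr1* in their spleens (4.65 and 3.87), *Cd84* most in 4T1 lungs (1.57) and *Arg1* in 4T07 scaffolds (2.31).

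Control tissues gave the levels without a tumor. Relative to control lungs, 4 of 8 genes were higher and 1 lower in control scaffolds (32.6% of 21602 genes called). *Cd84* was 8.17-fold (3.03), *Ncf1* 4.2-fold (2.07) and *Cybb* 2.73-fold (1.45) higher. The *Ptgs2* call (2.13, adjusted p = 0.0302) rested on library 2, without which the difference was -0.23 (adjusted p = 0.697), and it was also lost without library 6 (0.103). *Nos2* was lower, with 2 counts over the scaffolds against 14 over the lungs (adjusted p = 0.0513, ratio 6.99 with an interval of 1.61 to 63.4), a call lost without library 1 or 6 (0.124 and 0.155) and with DESeq2. Relative to control spleens, 6 of 8 were higher (34.5% called, 16.9% higher): *Olr1* (4.86), *Arg1* (2.80), *Cd84* (2.25), *Cybb* (1.45), *Ptgs2* (ratio 269, interval 47.9 to 10653) and *Arg2* (14 counts against 0, at least 1.15-fold higher at a floor of 3 counts per library). *Ncf1* differed by 0.63 (adjusted p = 0.00618), under 2-fold. Between control lungs and spleens 4 were higher and 1 lower (39.9% called). *Olr1* (5.17), *Arg1* (3.16) and *Ptgs2* (ratio 66.3, interval 11.6 to 2651) were higher in lungs, as was *Arg2* with 8 counts against 0, a call lost without library 4, 7, 8 or 9 (adjusted p from 0.109 to 0.183). *Ncf1* was lower in lungs (-1.44, adjusted p = 6.66e-06). The *Arg1* differences from spleen depended on the single spleen with counts, library 9, without which they were 6.82 for scaffolds and 7.17 for lungs, and without library 7 they were 2.21 and 2.56.

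Against the scaffolds of mice with the same line, the 4T07 and 4T1 tumors split the genes into 2 sets. In 67NR tumors 1 gene was higher and 5 lower (36.7% of 23778 genes called, median of all genes -0.24). *Cd84* (-4.07), *Cybb* (-3.26), *Ncf1* (-1.31), *Ptgs2* (-4.99) and *Olr1* (ratio 49.9, interval 16.9 to 243) were lower, and *Nos2*, with 13 counts against 1, was higher (ratio 21.3, interval 3.2 to 905), a call lost without library 10, 11 or 21 (adjusted p from 0.111 to 0.370). In 4T07 and 4T1 tumors 3 were higher and 3 lower (21.4% and 26.9% called). *Arg1* was 62.4-fold and 136-fold higher, *Nos2* 120-fold and 25-fold, and *Ptgs2* 24.2-fold and 2.96-fold. For *Nos2*, fits that left out 1 library gave values from 6.19 to 8.02 (log2) in 4T07 and from 3.70 to 5.97 in 4T1 mice. The *Ptgs2* difference of 4T1 mice was 1.57 and, without scaffold library 35, 2.82, and the *Arg1* difference of 4T07 mice was 5.96 and, without scaffold library 24, 6.65. *Cybb* was lower in tumors than in scaffolds (-1.77 and -3.09), as were *Cd84* (-2.95 and -3.56) and *Olr1* (-2.44 and -3.14). In 4T07 and 4T1 mice, *Cybb* and *Cd84* were thus higher in scaffolds than in tumors, and *Arg1*, *Nos2* and *Ptgs2* higher in tumors. In 67NR mice *Ptgs2* was instead lower in tumors, and *Arg1* was not called.

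Other genes of the same pathways, fixed as lists, are described by counts and medians. In tumors, genes around *Arg1* and *Nos2* (arginine, polyamine and nitric oxide metabolism, 17 tested) had 3 called higher and 3 lower in each of 4T07 and 4T1 relative to 67NR, with medians of 0.20 and 0.10. Of all genes tested in these comparisons, 28.9% and 20.7% were called (17.1% and 11.6% higher), and the medians were 0.16 and 0.09. *Slc7a2*, an arginine transporter, was 82.0 and 21.2 CPM in 4T07 and 4T1 against 4.51 CPM in 67NR (3.93 and 2.03). *Odc1*, which turns ornithine into polyamines, was lower at 12.5 and 15.9 against 98.7 CPM (-3.23 and -2.83). The prostaglandin list (18 tested) had 6 higher and 2 lower in 4T07, and 5 higher and 2 lower in 4T1 tumors, with medians of 0.23 and -0.35. *Slco2a1*, a prostaglandin transporter, was 224 and 391 against 19.9 CPM (3.25 and 4.10). *Ptgs1*, the constitutive cyclooxygenase, was lower at 23.3 and 31.9 against 71.9 CPM (-1.87 and -1.37), opposite to *Ptgs2*. The tryptophan list (13 tested) had 4 higher in 4T07 and 2 in 4T1 and none lower, with medians of 0.42 and 0.46 (0.42 and 0.01 with genes at the floor set to their bounds). *Ahr*, a receptor for tryptophan metabolites, was 30.8 and 52.8 against 12.8 CPM (1.02 and 1.84).

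Of the cytokines, receptors and transcription factors listed as possible regulators of some of the 9 genes, 21 were tested in tumors. Relative to 67NR tumors 11 were higher in 4T07 and 6 in 4T1 tumors, and none was lower. Relative to 4T07, 1 was higher and 4 were lower in 4T1 tumors, where 8.61% of all genes were called (4.79% lower). Their action on the 9 genes was not tested. Their medians were 1.22, 0.51 and -0.41, the first 1.17 with genes at the floor set to their bounds. *Csf3*, a neutrophil growth factor, was at 0 counts in 67NR tumors and averaged 6.49 CPM in the 4T07 tumors, and 17.7 CPM in 4T1 tumors. *Il1b* was 198 CPM in 4T1 and 19.8 CPM in 67NR tumors (3.12). In 4T1 mice *Il1b* was also higher than control in lungs (264 against 27.2 CPM) and spleens (196 against 46.6 CPM). The list of other genes of suppressive neutrophils and monocytes (15 tested) had 8 higher in 4T07 and 9 in 4T1 tumors, none lower, with medians of 1.39 and 1.29. *Trem1*, a myeloid activating receptor, was 7.21 and 32.0 against 0.74 CPM (3.00 and 5.19), and *Cd274* (PD-L1) was 61.7 CPM in 4T07 against 2.11 CPM in 67NR tumors (4.61). This list was partly chosen as known for such cells and shares *Cxcr2* with the neutrophil markers.

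Partners of the oxidase and surface genes varied between tissues. The NADPH oxidase list (13 tested in lungs, 12 in spleens) had 5 higher and 1 lower in 4T07 lungs and 4 higher in 4T1 lungs relative to control, and 3 higher and 1 lower in 4T07 and 3 higher in 4T1 spleens. Of all genes, 29% and 4.61% were called in these lungs, and 18.6% and 19.9% in these spleens. Its medians were 0.42 and 0.19 in lungs and 0.07 and 0.43 in spleens, where the 0.07 became 0.00 with genes at the floor set to their bounds. *Ncf4* (p40phox) was 109 and 72.6 against 12.7 CPM in lungs (3.16 and 2.52) and 101 and 117 against 44.7 CPM in spleens (1.35 and 1.66). *Mpo*, a granule enzyme of immature neutrophils, was 775 CPM in 4T07 and 40.7 CPM in 4T1 lungs against 0.525 CPM in control (10.56 and 6.26), and 968 and 747 against 11.3 CPM in spleens (6.60 and 6.32). In tumors this list (13 tested) had 6 higher and 1 lower in 4T07 and 3 higher in 4T1 relative to 67NR. The SLAM family, to which *Cd84* belongs (10 tested), had 5 higher and 1 lower in 4T07 lungs and 1 higher in 4T1 lungs (*Cd244a*, 37.6 against 11.3 CPM, 1.75). In spleens 6 were lower in 4T07 and 3 in 4T1 mice, and none higher, beside the 18.6% and 19.9% of all genes called there. The scavenger and C-type lectin receptors (12 tested in spleens), among which *Olr1* is placed, had 5 higher and 3 lower in 4T07 and 2 higher and 1 lower in 4T1 spleens. *Clec12a* was 108 and 95.4 against 36.7 CPM (1.73 and 1.64), while *Marco*, a macrophage scavenger receptor, was lower at 92.8 and 116 against 412 CPM (-1.98 and -1.58). In 4T07 tumors *Clec7a* (Dectin-1) was 400 CPM against 14.4 CPM in 67NR (4.55), and in 4T1 tumors 107 CPM (2.70).

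The likeness of expression patterns was measured by Pearson's r of log2(CPM + 1) over the 15 group means, among 14979 genes, as a description. The means share tissues and libraries and are not independent. The highest group means of *Arg2* and *Ido1* were 0.969 and 3.31 CPM, so that their likeness rests on few counts. That of *Arg1* and *Nos2* rests mainly on 4T07 and 4T1 tumors, where both were above all other groups. Among the 9 genes, *Arg1* and *Nos2* (0.918) and *Cybb* and *Cd84* (0.874) were most alike, and *Arg1* and *Ptgs2* followed (0.788). The genes most like each member were *Tns4* for *Arg1* (0.972), *Pitx1* for *Nos2* (0.975), *Itgb8* for *Ptgs2* (0.956), *Steap4* for *Arg2* (0.940), *Ptgir* for *Cybb* (0.958), *Atp8b4* for *Ncf1* (0.910), *Mfsd7a* for *Cd84* (0.970) and *Alas1* for *Olr1* (0.929). For *Ido1* it was *E330013P04Rik* (0.892). The next most alike were *Gzmf* and *Uggt1* for *Arg1*, *Foxc1* and *Ido2* for *Nos2*, *Ptx3* and *Uba3* for *Ptgs2*, *Ppp1r3b* and *Trem1* for *Arg2*, *Cyb5r4* and *Mlx* for *Cybb*, *Gda* and *G6pdx* for *Ncf1*, *Lcp1* and *Tbc1d23* for *Cd84*, *Hdc* and *Siglecf* for *Olr1*, and *Lgals7* and *Gm18072* for *Ido1*, with r between 0.822 and 0.970.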

How the data were processed

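RNA from scaffolds, lungs, spleens and tumors was sequenced by the authors from QuantSeq 3' libraries with the UMI add-on kit on a NovaSeq. The deposited table holds raw counts per gene symbol, made by the authors with Trim Galore 0.5.0, STAR 2.6.0 and featureCounts, as listed in the submitters' processing notes. The genome build, the annotation and the handling of UMIs are not given in the sources used here. The table had 55487 lines, and the 120 lines that repeated a symbol were summed into 55367 symbols.

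Each library was placed in its group by its labels. Tissues were fitted separately with all their groups, as in the study, here with edgeR 4.0.16 (quasi-likelihood test, TMM normalization, R 4.3.3) on genes with more than 10 counts over the fitted libraries, with Benjamini-Hochberg adjustment over all genes tested. Calls required a change of more than 2-fold and an adjusted p below 0.05 in tumors or below 0.10 elsewhere, and differences between tissues an adjusted p below 0.10 alone. The standard error is the log2 fold change divided by the square root of F. CPM values are counts scaled to a library total of 1000000. Where a group had no library above 3 counts, a pooled ratio with an exact 95% interval for counting error is given in place of the fold. Alternatives were DESeq2 1.42.0, its size factors in edgeR, no count filter, only the pair of groups compared, and leaving out each library. The edgeR and DESeq2 fits were tested on simulated data with known changes, for 1 comparison per fit, and the other steps were not. Changed genes were drawn above a mean count that *Arg2* and *Ido1* did not reach in any group. In the fits of single tissues, *Nos2* was also below it in scaffolds, lungs and spleens. So were *Arg1* in lungs and spleens, *Ptgs2* in spleens and *Olr1* in tumors. Changes in genes of such low counts were not simulated. With edgeR, from 28% (4T1 against control, spleen minus lung) to 82% (4T1 against control lungs) of 2-fold changes passed the adjusted p. False calls were from 5.71% (4T1 against 67NR tumors) to 12.4% (4T1 against control spleens) of all calls. No 2 replicate libraries were identical or agreed within sampling noise (chi-square per degree of freedom of at least 3.88 over 45 pairs).

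The 9 genes are named in every tissue. From each list, up to 2 called genes per direction and comparison with the largest change, separate groups and a mean of at least 5 CPM could be named, and for likeness the 3 genes with the highest r. The members and all lists were chosen with earlier results of these data known. The values of 1 gene of the lists and of 1 of the searched motifs are not reported here.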

Additional observations from a re-analysis of the deposited data

Results flagged for a closer look

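The change relative to control, or between 4T1 and 4T07 mice, differed between tissues for 19 pairs of a gene and a contrast, by the test of the difference itself (edgeR, adjusted p below 0.10, differences on the log2 scale). Of the 9 genes, *Cybb*, *Nos2* and *Ptgs2* had no such difference. More and less compare signed changes, so that a fall counts as less than a rise.

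For 4T1 against control, *Olr1* changed more in spleens than in lungs (4.69, adjusted p = 1.95e-06) and than in scaffolds (3.78, adjusted p = 4.8e-05), and both values shrank without control spleen library 9 (4.11 and 3.18). *Cd84* changed less in spleens than in lungs (-1.82) and more in lungs than in scaffolds (1.54). *Ncf1* changed more in spleens (1.79) and in lungs (1.81) than in scaffolds. *Arg2* changed more in spleens than in scaffolds (5.41, adjusted p = 0.0565), a fitted value from 8 counts against none that is no bound, and the call was lost without library 2, 7, 8, 9 or 41 (adjusted p up to 0.128).

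For 4T07 against control, *Olr1* changed more in spleens than in lungs (5.18) and than in scaffolds (4.79). *Ncf1* changed more in spleens (2.02) and in lungs (2.82) than in scaffolds. *Cd84* changed less in spleens than in lungs (-0.88) and than in scaffolds (-0.69, lost without library 2, 8, 24 or 28, adjusted p from 0.111 to 0.184). *Arg1* changed less in lungs than in scaffolds (-3.43), and this was -2.79 without scaffold library 24.

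For 4T1 against 4T07, *Cd84* differed between spleens and lungs (-0.93) and between lungs and scaffolds (1.34). *Arg1* differed between lungs and scaffolds (2.92, and 2.27 without library 24, adjusted p = 0.103), as did *Ncf1* (-1.01, lost without library 23, 26 or 39, adjusted p from 0.124 to 0.149). *Ido1* differed between lungs and scaffolds (7.12, adjusted p = 0.0282), where lungs had 1, 1 and 1 counts in 4T1 and none in 4T07 mice, so that the fitted value is no bound. The 4T07 lungs of these contrasts had the lung epithelial and erythroid sums given in the report, whose part was not tested.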

How the results depend on the processing

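Of 82 calls in comparisons of 2 groups, 61 were kept in all fits that left out a library and 74 in all other alternatives. Of 19 differences between tissues 15 and 19 were. Only fits that could give a value were counted. The 61 include *Arg2* for 4T1 against control spleens, which had a value in only 8 of the fits that left out a library. Counts of genes called, out of the 9, moved in these cases. With DESeq2 they became 1 (from 2) for 4T07 against control scaffolds, 0 (from 1) for 67NR against control lungs, 0 (from 1) for 4T1 against 4T07 lungs, 2 (from 4) for 4T1 against 67NR spleens and 3 (from 5) for control scaffolds against lungs, partly because DESeq2 gave no adjusted p for genes of few counts. With DESeq2 size factors 4T1 against 4T07 lungs became 0. Without the count filter, 4T1 against 4T07 scaffolds became 3 (from 1), 67NR against control lungs 0, 4T1 against 4T07 lungs 2, and the differences between spleen and lung 5 (from 2) for 4T07 against control and 2 (from 1) for 4T1 against 4T07, and between spleen and scaffold 1 (from 0) for the latter. With only the pair of groups fitted, 4T1 against 4T07 scaffolds became 0. The cause of these moves was otherwise not tested.

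Leaving out each library in turn gave 1 to 3 calls for 4T07 against control scaffolds, 0 to 2 against 67NR scaffolds and 0 to 2 for 4T1 against 4T07 scaffolds. The other scaffold comparisons stayed at 0. In lungs the ranges were 0 to 1 for 67NR against control, 2 to 4 and 4 to 6 for 4T07 against control and 67NR, 2 to 2 and 2 to 4 for 4T1 against control and 67NR, and 0 to 3 for 4T1 against 4T07. In spleens they were 2 to 4 and 2 to 3 for 4T07, 2 to 4 and 2 to 5 for 4T1, and 0 to 1 for 4T1 against 4T07. In tumors they were 7 to 7, 3 to 4 and 3 to 4, between control tissues 3 to 5, 6 to 6 and 4 to 5, between tumor and scaffold 5 to 7, 6 to 6 and 6 to 6, and for differences between tissues between 0 and 4. Leaving out a 67NR library was not run for the latter. Sign changed for 2 differences, both of *Ptgs2* without library 2. The difference of 4T07 from control scaffolds ranged from -2.60 to 0.26 over these fits, and that of control scaffolds from lungs from -0.23 to 2.63.

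No paired analysis was possible because the labels do not link libraries to single mice. Tests between tissues treated libraries as independent, whether or not the tissues came from the same mice. With 3 libraries per group and 3491888 to 8175380 counts each, *Arg2* and *Ido1* had too few counts in most groups for a change to be detectable.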
